A study of Homo sapiens with 9 samples.

Results

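The kallikrein genes KLK5, KLK6, KLK7, KLK8, KLK9, KLK10, KLK11, KLK12, KLK13 and KLK14 encode secreted serine proteases, and they were followed here across 3 related human mammary epithelial cell lines. The members were chosen by gene symbol, 10 of the 62666 genes in the deposited tables. Of these 10, 6 had enough counts to be tested, among 17910 tested genes. The lines were MCF10A, which does not form tumours, MCF10AT1, a premalignant line made from it by transfer of activated HRAS, and MCF10Ca1a, a malignant line that came from the same MCF10A ancestry. Polyadenylated RNA was sequenced in 3 libraries per line, and the stated aim was to follow gene expression during progression of breast cancer.

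The medium of all 3 lines was DMEM/F12 with cholera toxin at 100 ng/mL, hydrocortisone at 500 ng/mL, epidermal growth factor at 20 ng/mL and insulin at 10 µg/mL, so each control also received the growth factor, the glucocorticoid and the toxin. Horse serum was 5% for MCF10A and MCF10Ca1a and 2.5% for MCF10AT1. Serum and line therefore cannot be told apart in the comparisons with MCF10AT1. Each stage was represented by 1 line, and the labels do not say whether the replicates were separate cultures, so p-values measure the spread between these libraries, which may be technical.

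Tissue kallikreins are made as inactive pro-enzymes and are switched on by removal of a short propeptide. In the upper epidermis KLK5, KLK7, KLK8 and KLK14 act in a cascade that cuts the proteins holding corneocytes together, and the inhibitor LEKTI, the product of SPINK5, restrains it. Trypsin-like members can also cut protease-activated receptors, and several members are expressed in breast epithelium.

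Library totals ran from 62.9 to 69.5 M (mega-counts) in MCF10A and MCF10AT1 and from 32.9 to 35.2 M in MCF10Ca1a, so low genes were measured with fewer counts in the malignant line. A count of 3 in 1 library was worth 0.043 to 0.0483 CPM (counts scaled to a common library total) in MCF10A and MCF10AT1 and 0.0838 to 0.0892 CPM in MCF10Ca1a, and it was taken as the floor. The summed level of 9 mammary epithelial markers was between 2620 and 4280 TPM (a level scaled by transcript length and library) in every library. Summed markers of other cell types moved with the lines. For 6 leukocyte markers the libraries ran from 16.1 to 22.7 TPM in MCF10A, from 6.21 to 6.61 in MCF10AT1 and from 30.5 to 33.5 in MCF10Ca1a, and CD14 and CD68 made up most of these sums. For 7 fibroblast markers they ran from 6.43 to 7.23, from 27.7 to 31.5 and from 1.94 to 2.33 TPM in the same order, led by DCN in MCF10AT1. Endothelial markers (4) reached 15.6 to 20.8 TPM in MCF10Ca1a, led by PECAM1, and were at most 1.32 elsewhere. Melanocyte markers (4) reached 3.26 to 3.52 TPM in MCF10Ca1a, where PMEL and DCT were higher than in MCF10A (adjusted p = 2.85e-09 and 1.02e-05, edgeR), and were at most 0.313 elsewhere. Of the defining markers, CD3E, MLANA and TYR had 0 counts in all lines, and PTPRC, VWF, CDH5, COL1A2 and COL3A1 had a mean of at most 1.33 counts in any line. The part of these markers in the kallikrein results was not tested.

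All 10 genes lie side by side on the minus strand of chromosome 19, within 141 kb from the lower end of KLK5 at 50943303 to the upper end of KLK14 at 51084245 (GENCODE 29 on GRCh38). The upstream sequences of KLK5, KLK6 and KLK7 are shown because these neighbours were highest in MCF10AT1 (KLK5 and KLK7) or in MCF10Ca1a (KLK6), and KLK7 was undetected in MCF10Ca1a. They come from RefSeq promoter windows on GRCh38.p14, minus strand, and only the part upstream of every GENCODE 29 transcript of the gene is printed. KLK5 is chr19:50953094-50953288, KLK6 is chr19:50969674-50969841 and KLK7 is chr19:50984100-50984314. The first bases after the KLK6 and KLK7 windows shown were not found in KLK6-202 and KLK7-205, the transcripts with most counts of these genes. These 2 stretches are therefore not shown to be the promoters of the main measured transcripts. Capitals mark a GC box (GGGCGG, or CCGCCC on the other strand) or an E-box (CAGGTG on either strand).
KLK5: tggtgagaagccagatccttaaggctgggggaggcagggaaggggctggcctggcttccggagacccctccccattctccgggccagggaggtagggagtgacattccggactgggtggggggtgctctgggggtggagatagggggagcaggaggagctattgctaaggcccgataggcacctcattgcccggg
KLK6: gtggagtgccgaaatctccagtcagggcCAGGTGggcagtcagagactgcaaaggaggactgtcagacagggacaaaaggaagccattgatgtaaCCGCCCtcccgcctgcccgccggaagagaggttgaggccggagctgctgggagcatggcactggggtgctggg
KLK7: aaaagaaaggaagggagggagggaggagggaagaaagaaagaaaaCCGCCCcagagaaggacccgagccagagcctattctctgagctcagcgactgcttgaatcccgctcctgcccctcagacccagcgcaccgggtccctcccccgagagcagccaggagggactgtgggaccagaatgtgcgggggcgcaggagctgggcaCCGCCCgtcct
Across the full stretches of 250 bases before each RefSeq start, 9 of the 10 genes had 16 windows. A GC box was present in 10 of the 16 windows, against 42.6% of all 35116 windows of that length, and the E-box in 3 of 16, against 17.5%. The nuclear receptor motif AGGTCA was found in 1 window of KLK13, against 12.1% of all windows. No window held the AP-1 site TGANTCA, the grainyhead site AACNNGTT, the steroid receptor motif AGAACA or TATAAA, which stood in 6.6%, 3.0%, 12.4% and 10.7% of all windows. The motifs were searched on both strands, and a match or its absence describes these letters only. Some windows of 1 gene overlap and share their matches.

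KLK5, a trypsin-like protease that can activate other kallikreins, was the most abundant family member in both derived lines. It stood at 0.219, 0.287 and 0.141 TPM in the MCF10A libraries. The MCF10AT1 libraries held 28.4, 27.5 and 25.7 TPM, and the MCF10Ca1a libraries 8.27, 8.35 and 8.58 TPM. The lines did not overlap, with MCF10AT1 highest and MCF10A lowest. In counts the MCF10A libraries held only 12 to 22, while MCF10AT1 held 2070 to 2403 and MCF10Ca1a 296 to 328. On the log2 scale KLK5 was 7.13 higher in MCF10AT1 than in MCF10A (SE 0.117, adjusted p = 1.62e-14, edgeR's quasi-likelihood test, Benjamini-Hochberg adjusted, n = 3 per line). Against MCF10A it was 5.16 higher in MCF10Ca1a (SE 0.134, adjusted p = 3.38e-13, edgeR). From MCF10AT1 to MCF10Ca1a it fell by 1.96 (SE 0.0751, adjusted p = 2.14e-11, edgeR).

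KLK7, a chymotrypsin-like protease of the same epidermal cascade, was the leading member in MCF10A. Its level was 1.27, 0.827 and 1.03 TPM in MCF10A and 1.78, 1.47 and 1.53 TPM in MCF10AT1. All 3 MCF10Ca1a libraries held 0 counts, where MCF10A held 79 to 112 and MCF10AT1 152 to 182. The premalignant line lay just above MCF10A without overlap, and the malignant line had no detected transcript. KLK7 rose by 0.72 (log2, SE 0.164, adjusted p = 0.00241, edgeR) from MCF10A to MCF10AT1. Against a floor of 3 counts per library, it was at least 17.7-fold lower in MCF10Ca1a than in MCF10A (adjusted p = 1.76e-08, edgeR) and at least 29.2-fold lower than in MCF10AT1 (adjusted p = 4.32e-09, edgeR).

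KLK14, another trypsin-like member of that cascade, was near the detection limit throughout. Its counts were 1, 4 and 1 for MCF10A, then 10, 6 and 6 for MCF10AT1, then 5, 4 and 1 for MCF10Ca1a, and it did not pass the filter on low counts. The MCF10AT1 libraries lay above those of MCF10A, and the MCF10Ca1a libraries overlapped with both in CPM. With no filter on low counts, a fit read for the untested members after the data were seen, the log2 difference between MCF10AT1 and MCF10A was 1.83 (SE 0.727, adjusted p = 0.0349, edgeR) and that between MCF10Ca1a and MCF10A was 1.51 (SE 0.823, adjusted p = 0.122, edgeR). No call is read from these p-values: without the filter the prior degrees of freedom of the fit were 390 in place of 7.13, and the adjusted p of KLK5 in the first comparison fell to 9.85e-192.

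KLK6, also called neurosin, is a trypsin-like protease known from brain and from several carcinomas. The MCF10A libraries held 3, 0 and 3 counts, at or under the floor. MCF10AT1 held 184, 132 and 111 counts (1.95, 1.43 and 1.2 TPM), and MCF10Ca1a held 144, 128 and 173 counts (3.39, 3.21 and 4.26 TPM). Of the 6 tested members it was the one that stood highest in the malignant line, and the lines did not overlap in TPM. Its rate in MCF10AT1 was 72.5 times that in MCF10A (95% counting interval 33 to 199, adjusted p = 9.02e-09, edgeR). In MCF10Ca1a it was 140 times that in MCF10A (interval 64 to 385, adjusted p = 3.23e-10, edgeR). The step from MCF10AT1 to MCF10Ca1a was a rise of 0.96 (log2, SE 0.2, adjusted p = 0.00059, edgeR).

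KLK10, first isolated as a transcript of normal mammary epithelial cells, held 52, 36 and 40 counts in MCF10A. The MCF10AT1 libraries held 249, 274 and 227 counts and the MCF10Ca1a libraries 41, 35 and 40. Raw counts of the outer lines looked alike, but the MCF10Ca1a libraries were shallower, and in CPM they lay above MCF10A (means of 1.1 ± 0.0565 and 0.647 ± 0.142, SD, n = 3). KLK10 rose by 2.57 (log2, SE 0.154, adjusted p = 6.39e-09, edgeR) from MCF10A to MCF10AT1 and fell by 1.80 (SE 0.157, adjusted p = 1.16e-07, edgeR) from there to MCF10Ca1a. It remained 0.77 higher in MCF10Ca1a than in MCF10A (SE 0.182, adjusted p = 0.0014, edgeR). The size of this last difference depends on the deposited unit: it was 1.49 with the length-scaled counts (adjusted p = 0.000164, edgeR) and 1.48 with the scaled counts (adjusted p = 0.000594, edgeR), and mean TPM went from 0.289 to 0.908.

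KLK8, or neuropsin, and its neighbour KLK9 were both highest in MCF10AT1. KLK8 had estimated counts of 10.66, 4.72 and 7 for MCF10A, then 73.06, 64.81 and 46 for MCF10AT1, then 0, 2 and 0 for MCF10Ca1a. KLK9 had 0, 0 and 3 for MCF10A, then 46.94, 27.98 and 41 for MCF10AT1, then 0, 1 and 0 for MCF10Ca1a. The MCF10AT1 libraries lay far above both other lines for each gene. The estimated counts of KLK8, KLK9 and an annotated read-through gene over both (ENSG00000269741) were fractional where their sum was whole, so reads were divided between these genes and the split is uncertain.

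KLK8 rose by 3.00 (log2, SE 0.362, adjusted p = 7.74e-06, edgeR) from MCF10A to MCF10AT1, and its rate in MCF10AT1 was 49.5 times that in MCF10Ca1a (counting interval 13.5 to 412, adjusted p = 1.09e-06, edgeR). The rate of KLK9 in MCF10AT1 was 39.4 times that in MCF10A (interval 13.1 to 194, adjusted p = 7.31e-06, edgeR) and 62.4 times that in MCF10Ca1a (interval 11 to 2480, adjusted p = 1.69e-05, edgeR). Single libraries decide the size of these ratios: all 3 MCF10A counts of KLK9 were in replicate 3, and the MCF10Ca1a counts of both genes were in replicate 2. Without MCF10A replicate 3 the fitted log2 change of KLK9 in MCF10AT1 against MCF10A went from 5.11 to 8. Without MCF10Ca1a replicate 2 the fitted change from MCF10AT1 to MCF10Ca1a went from -5.46 to -8.78 for KLK8 and from -5.66 to -8.12 for KLK9. With the length-scaled counts the KLK8 value was -3.63 (adjusted p = 0.000376, edgeR). These 3 calls held with each library left out in turn, and values fitted against a line at 0 counts are no bounds. With the 3 genes summed, which was chosen after the data were seen, counts were 13, 12 and 10 for MCF10A, then 120, 101 and 87 for MCF10AT1, then 3, 3 and 0 for MCF10Ca1a. The sum rose by 3.14 (log2, adjusted p = 4.56e-07, edgeR) and then fell by 4.73 (adjusted p = 8.94e-08, edgeR), so the sum peaked in MCF10AT1, which does not show how far each gene did.

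Between MCF10Ca1a and MCF10A the evidence on KLK8 and KLK9 was weak. The rate of KLK8 in MCF10A was 6.07 times that in MCF10Ca1a (counting interval 1.5 to 53.1). KLK8 fell by 2.47 (log2, SE 0.839, adjusted p = 0.015, edgeR), but the call was lost without MCF10Ca1a replicate 1 (-1.92, adjusted p = 0.0602) or replicate 3 (-1.93, adjusted p = 0.0594), and without replicate 2, which leaves MCF10Ca1a at 0 counts, the fitted value was -5.78 and is no bound. With the deposited length-scaled counts it was -0.17 (adjusted p = 0.872). In TPM the 2 counts of MCF10Ca1a replicate 2 were listed as 0.515, above every MCF10A library. KLK9 was at or under the floor in both lines, with no call (adjusted p = 0.747, edgeR). The sum of the 3 genes differed by -1.59 (adjusted p = 0.0167, edgeR).

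KLK11, KLK12 and KLK13 were at or below detection. KLK11 had 2 counts in MCF10A replicate 1 and 1 count in MCF10Ca1a replicate 3, KLK13 had 1 count in MCF10AT1 replicate 3, and KLK12 had none in any of the 9 libraries. With no filter, neither KLK11 nor KLK13 was called in any comparison (lowest adjusted p = 0.373, edgeR). A count of 0 allows up to 0.0892 CPM in the shallowest library, and this limit covers counting error only.

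**Figure D1:**
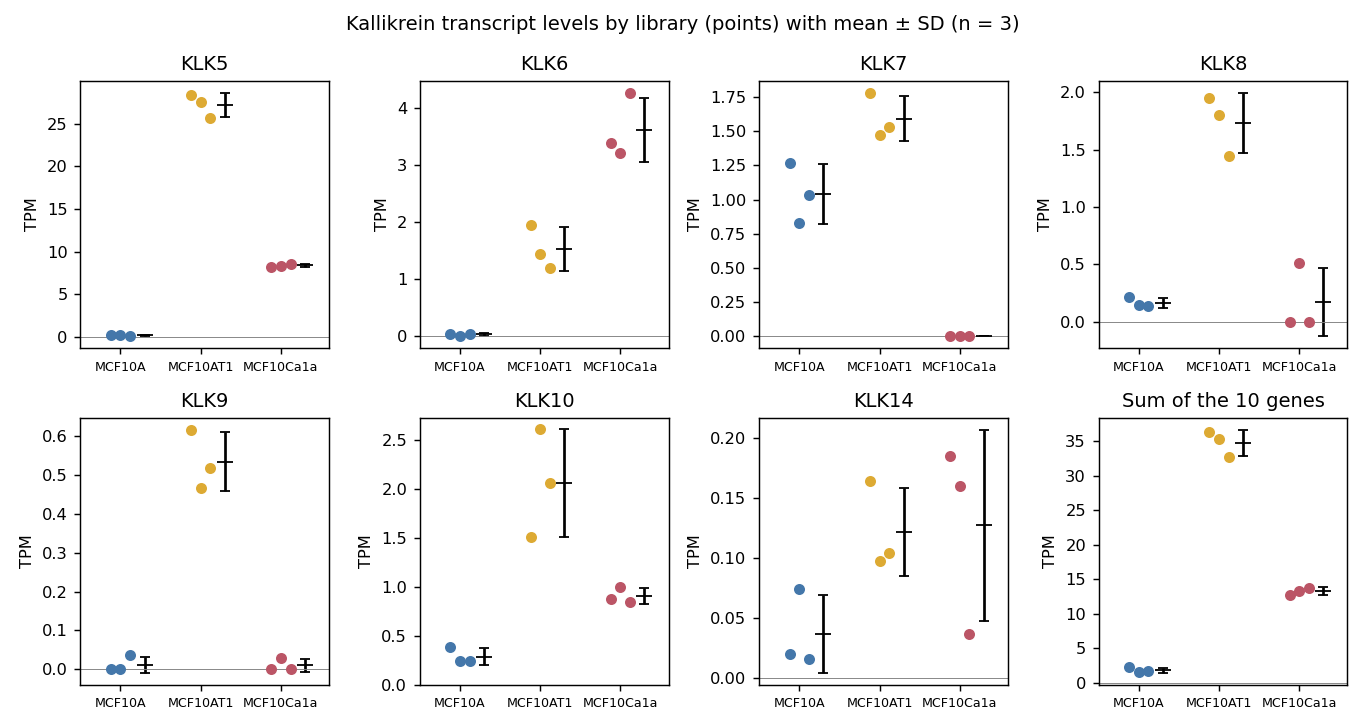
TPM of 7 kallikreins and of the sum of all 10 genes (vertical axes, a separate scale per panel) in the 3 libraries of each line (horizontal axis); points are libraries and bars are mean ± SD. KLK5 stands at 25.7 to 28.4 TPM in MCF10AT1 and 8.27 to 8.58 in MCF10Ca1a, KLK6 is highest in MCF10Ca1a, and KLK7 is at 0 there.

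From MCF10A to MCF10AT1 all 6 tested members rose, where 61.6% of all tested genes were called, 29.8% higher and 31.8% lower. KLK5, KLK6, KLK8, KLK9 and KLK10 rose at least 2-fold, 5 of the 6, where 9.36% of all tested genes did and 8.64% fell that far. From MCF10A to MCF10Ca1a 5 of 6 were called, 3 higher (KLK5, KLK6, KLK10) and 2 lower (KLK7, KLK8), where 80.9% of all tested genes were called, 39% higher and 41.9% lower. At least 2-fold, 2 rose and 2 fell, beside 21.2% and 21.7% of all tested genes. From MCF10AT1 to MCF10Ca1a all 6 were called, 5 lower and KLK6 higher, where 78.4% of all tested genes were called, 38% higher and 40.3% lower. At least 2-fold, 5 fell and none rose, beside 19.5% that fell and 18.2% that rose among all tested genes. Since most genes were called between these lines, a call alone says little about a member. The median absolute log2 change over all tested genes was 0.38, 0.84 and 0.76 in the 3 comparisons. KLK6, KLK8 and KLK9 reached 10 counts in all 3 libraries only in the lines where they were high. The number called among the tested members and the size of their changes are therefore no measure of the family. The 3 comparisons share libraries, each line entering 2 of them.

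**Figure D2:**
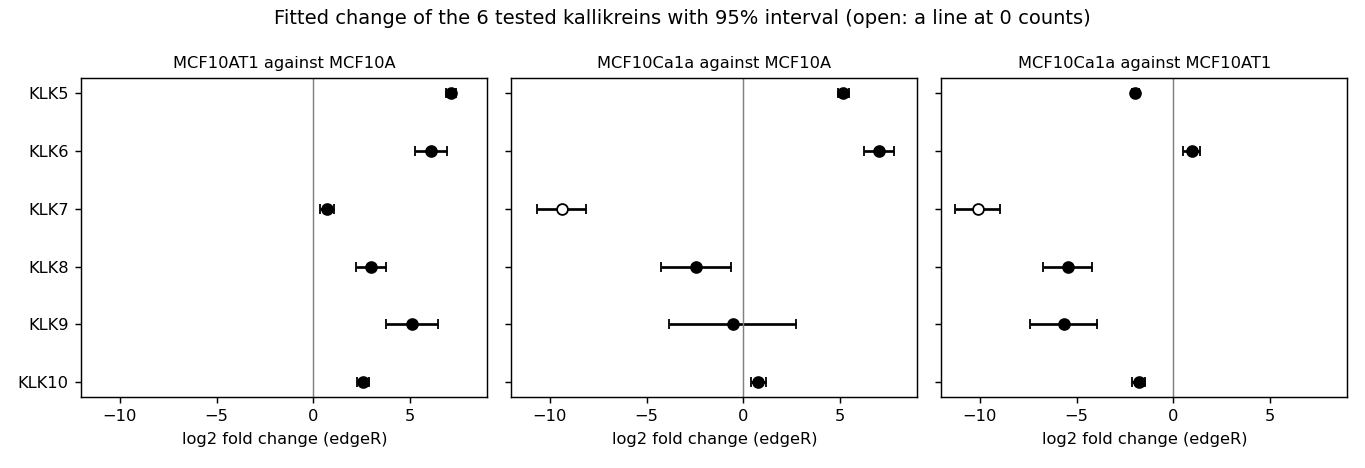
Fitted log2 fold change (horizontal axis) with its 95% interval for the 6 tested kallikreins (rows) in the 3 comparisons (panels). All 6 lie to the right of 0 for MCF10AT1 against MCF10A; open circles mark KLK7, at 0 counts in MCF10Ca1a, whose fitted value is not a bound.

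The summed level of the family was 1.81 ± 0.359 TPM in MCF10A, 34.8 ± 1.87 in MCF10AT1 and 13.3 ± 0.551 in MCF10Ca1a (mean ± SD, n = 3), with no overlap between lines. The make-up changed with the level. KLK7 made up 57.6% ± 5.26 of the sum in MCF10A and KLK10 15.8% ± 1.33. In MCF10AT1 KLK5 made up 78.2% ± 0.557, and no other member passed 7.37% in any library. In MCF10Ca1a KLK5 made up 63.4% ± 1.46 and KLK6 27.3% ± 3.39 (SD, n = 3). The share of KLK5 in the MCF10A libraries was 9.85%, 18.2% and 8.67%.

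**Figure D3:**
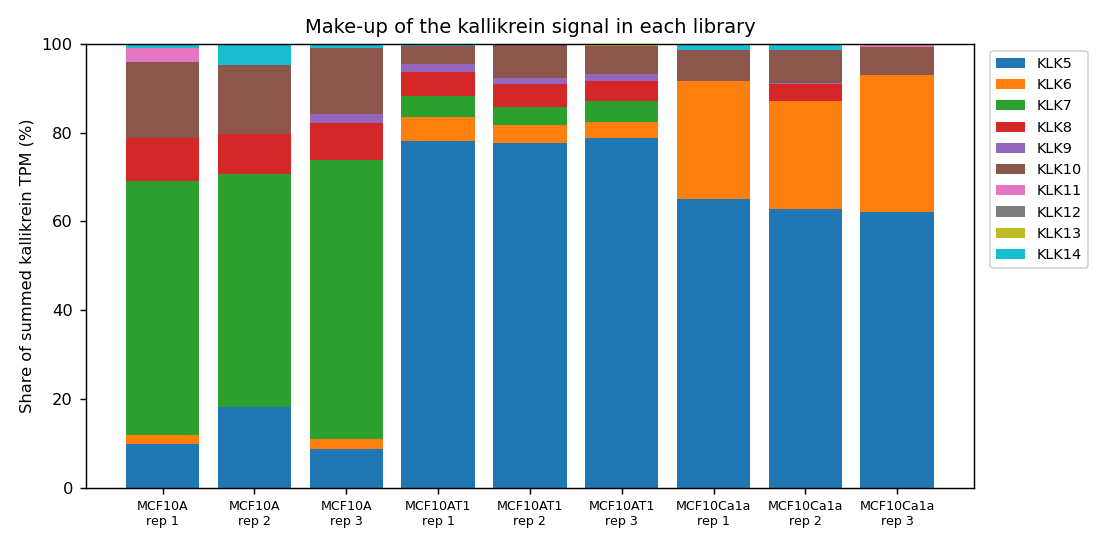
Share of the summed kallikrein TPM (vertical axis, percent) held by each of the 10 genes (colours) in each of the 9 libraries (bars). KLK7 leads in the 3 MCF10A libraries, KLK5 in all others, and KLK6 takes 24.2% to 30.9% only in the MCF10Ca1a libraries.

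Transcript tables allowed a view of isoforms. Of 69 listed transcripts of the members, 34 had counts, and 7 from KLK5, KLK6 and KLK10 could be tested. KLK5-201, the main coding transcript, held 72% ± 1.15 of KLK5 counts in MCF10AT1 and 58.2% ± 8.24 in MCF10Ca1a, and KLK5-203 held 23.2% ± 1.22 and 33.2% ± 10.7 (SD, n = 3). KLK6-202 held 65.7% ± 14.5 of KLK6 counts in MCF10AT1 and 52% ± 11.6 in MCF10Ca1a, with KLK6-201 at 33.7% ± 14.7 and 30.6% ± 14.2. KLK7-205 held 99.2% ± 1.39 of KLK7 counts in MCF10A and 96.2% ± 2.08 in MCF10AT1. The share of KLK5-201 was 71.1% to 73.3% in the MCF10AT1 libraries and 48.9% to 64.6% in the MCF10Ca1a libraries, without overlap, but the difference was not called (log2 ratio difference -0.88, SE 0.435, adjusted p = 0.235, limma). The shares of KLK5-203 (22.4% to 24.6% and 21.4% to 42.1%) and of KLK6-202 overlapped between these lines.

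The isoform shares of KLK10 varied between libraries of 1 line. The coding transcript KLK10-202 held 100% of its counts in every MCF10A library. KLK10-206, annotated as a target of nonsense-mediated decay, held 0%, 40.7% and 25.9% in the MCF10AT1 libraries and 41.4%, 66.7% and 39.9% in the MCF10Ca1a libraries. It was absent from the first MCF10AT1 library although that library held 249 KLK10 counts. KLK10 TPM in MCF10AT1 spread from 1.51 in that library to 2.61 in the second, which had the most KLK10-206, while counts spread only from 227 to 274.

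No member transcript changed its share at an adjusted p under 0.05 in any comparison (limma on log2 of a transcript's counts over those of its gene's other transcripts). Of 71521 tested transcripts, 1.68% changed share between MCF10A and MCF10AT1, 18.9% between MCF10A and MCF10Ca1a and 14% between the derived lines. At an unadjusted p under 0.05 the counts of member transcripts were 1, 2 and 0 in that order. The share of KLK10-206 in MCF10Ca1a against MCF10A had a log2 ratio difference of 6.39 (SE 2.04, adjusted p = 0.0718, limma). Without MCF10AT1 replicate 1 that difference was called (6.39, adjusted p = 0.000696, limma). On simulated data this test missed most share changes of a fixed size, so the lack of calls does not show equal isoform use.

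Within the span from KLK5 to KLK14 the tables list 17 genes, and the 6 tested ones were all kallikreins. On the side of KLK5, KLK1, the gene of tissue kallikrein proper, had 11, 12 and 12 counts for MCF10A, then 31, 30 and 26 for MCF10AT1, and 0 for each MCF10Ca1a library. It rose by 1.33 (log2, SE 0.276, adjusted p = 0.00131, edgeR) in MCF10AT1 and was lower in MCF10Ca1a than in MCF10A (adjusted p = 4.6e-05, edgeR), the same directions as KLK7. KLK2, KLK3, KLK4 and KLK15 had 0 counts in all libraries.

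Of the 9 tested genes within 300 kb on either side, KLK1 included, 8 rose and none fell from MCF10A to MCF10AT1. In that comparison 29.8% of all tested genes rose and 31.8% fell. From MCF10A to MCF10Ca1a 7 of the 9 rose and 2 fell, beside 39% and 41.9% of all tested genes. From MCF10AT1 to MCF10Ca1a 4 rose, 2 fell and 3 were not called, where 38% of all tested genes rose and 40.3% fell. C19orf48 differed on the log2 scale by 0.47 between MCF10AT1 and MCF10A, by -1.55 between MCF10Ca1a and MCF10A, and by -2.02 between MCF10Ca1a and MCF10AT1 (adjusted p at most 1.83e-06, edgeR). CTU1, a tRNA-modifying enzyme gene that follows KLK14, was higher at both steps, by 0.84, 1.38 and 0.55 in the same order (adjusted p at most 0.00103, edgeR). CLEC11A was 1.93 and 1.92 higher in the derived lines than in MCF10A and did not differ measurably between them (-0.01, 95% interval -0.45 to 0.43). Of the 9 genes, 4 lie on the KLK5 side and 5 on the KLK14 side.

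The tally within 300 kb is a description only. CLDND2 and TMEM277P had under 10 counts on average in MCF10A and entered the test through lines where they were higher. The annotated gene ENSG00000269403 overlaps both ETFB and CLDND2, and all 3 carry fractional counts, so reads may be divided between them and their 3 rises may not be separate. In a wider list of 33 neighbours on 19q13, which shares genes with the 9, 15 were tested: 10 rose, 1 fell and 4 were not called from MCF10A to MCF10AT1 (median log2 change 0.52), beside 29.8% of all tested genes higher and 31.8% lower. The fall was EMC10, by 0.41 (adjusted p = 0.000136, edgeR). In MCF10Ca1a 8 of the 15 rose and 4 fell against MCF10A (median 0.55), beside 39% and 41.9% of all tested genes. Against MCF10AT1 6 of the 15 rose and 4 fell (median -0.01), beside 38% and 40.3%.

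**Figure D4:**
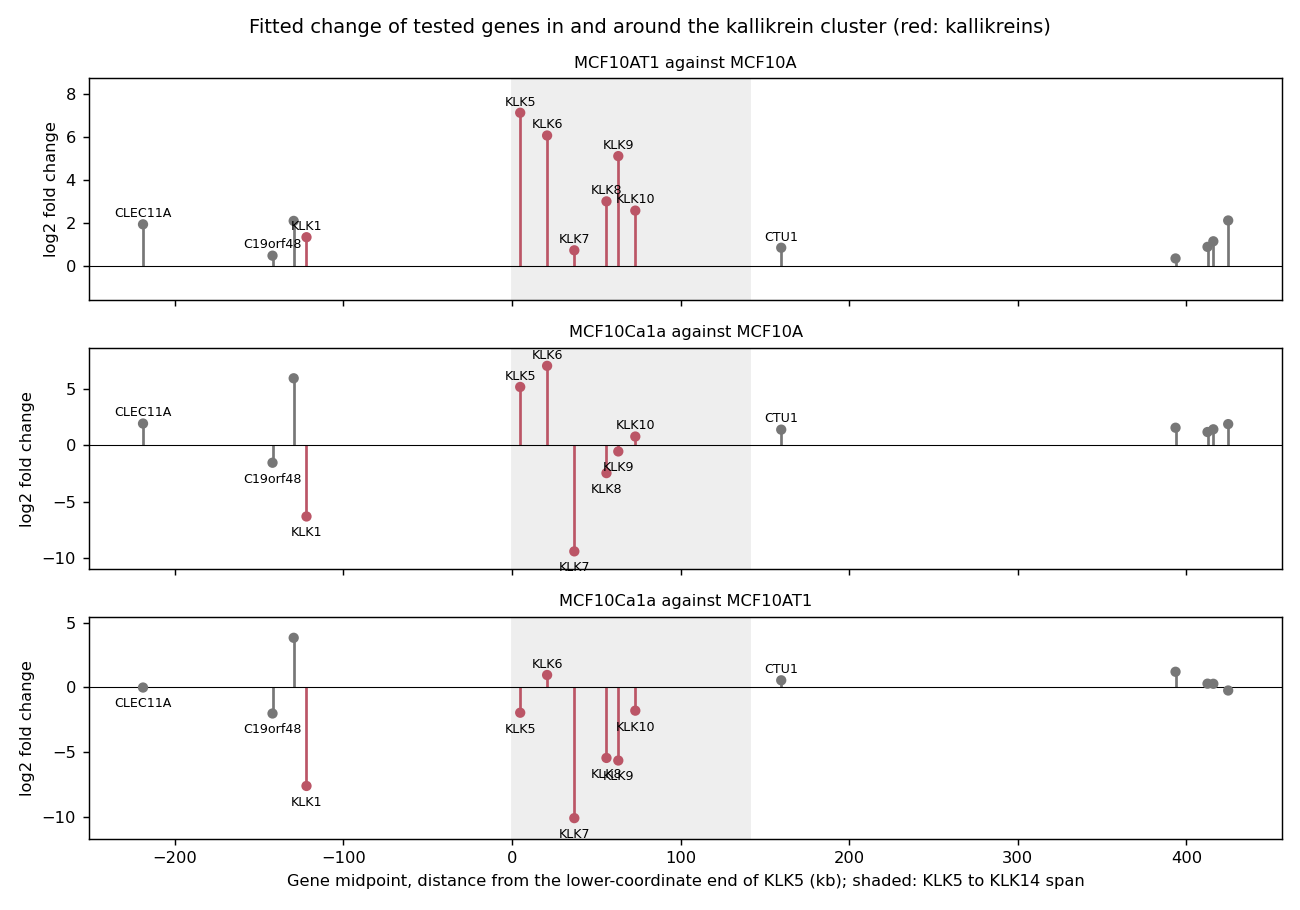
Fitted log2 fold change (vertical axes) of the tested genes in and within 300 kb of the kallikrein cluster, by distance of the gene midpoint from the lower end of KLK5 in kb (horizontal axis); red marks kallikreins and grey other genes, in 3 panels for the 3 comparisons. Within the shaded span MCF10Ca1a against MCF10A shows KLK5 and KLK6 above 0 beside KLK7 below 0; values of KLK1 and KLK7 in MCF10Ca1a rest on 0 counts and are not bounds.

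The lists that follow are read against all tested genes. Of those, 29.8% rose and 31.8% fell in MCF10AT1 against MCF10A (median log2 change 0), 39% and 41.9% in MCF10Ca1a against MCF10A (median -0.05), and 38% and 40.3% in MCF10Ca1a against MCF10AT1 (median -0.04). No test compared a list with the other genes.

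Most of the tested proteases that can activate pro-kallikreins were higher in MCF10Ca1a than in MCF10A. Of 16 listed activators 7 were tested, and 6 rose and 1 fell from MCF10A to MCF10Ca1a (median log2 change 2.57). From MCF10A to MCF10AT1 4 rose, 2 fell and 1 was not called (median 0.70), and from MCF10AT1 to MCF10Ca1a 5 rose and 2 fell (median 1.56). PRSS8, the membrane protease prostasin, had means of 12.1, 18.9 and 164 TPM in MCF10A, MCF10AT1 and MCF10Ca1a, and MCF10Ca1a exceeded MCF10A by 3.53 (log2, adjusted p = 6.08e-14, edgeR). PLAU, the urokinase gene, went the other way, at 118, 14.4 and 53.5 TPM in the same order.

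Of 25 listed inhibitors 17 were tested: 9 rose (52.9%) and 6 fell (35.3%) in MCF10AT1 against MCF10A (median 0.20, or 0.22 without a gene at 0 in both lines), 7 rose (41.2%) and 10 fell (58.8%) in MCF10Ca1a against MCF10A (median -0.70), and 8 rose and 8 fell in MCF10Ca1a against MCF10AT1 (median -0.16). SPINK5, the gene of the kallikrein inhibitor LEKTI, had 1.47 ± 0.146, 2.64 ± 0.325 and 0.4 ± 0.191 TPM in MCF10A, MCF10AT1 and MCF10Ca1a (SD, n = 3). It fell by 1.63 (log2, SE 0.168, adjusted p = 6.06e-07, edgeR) from MCF10A to MCF10Ca1a. A2ML1, an epidermal broad-range protease inhibitor, was 4.77 and 3.98 higher in MCF10AT1 and MCF10Ca1a than in MCF10A (adjusted p = 1.44e-12 and 3.44e-12, edgeR). SERPINA5, an inhibitor of several kallikreins, was highest in MCF10Ca1a at 11.6 ± 0.985 TPM, against 1.06 ± 0.224 in MCF10A.

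Among 31 listed substrates and receptors 23 were tested; 4 rose (17.4%) and 12 fell (52.2%) in MCF10AT1 against MCF10A (median -0.27). In MCF10Ca1a against MCF10A 8 rose (34.8%) and 11 fell (47.8%), near the shares of all tested genes (median -0.23), and from MCF10AT1 to MCF10Ca1a 9 rose and 11 fell (median 0.02). IGFBP3, a growth factor binding protein that kallikreins can cut, stood at 0.663, 4.81 and 15.1 TPM in MCF10A, MCF10AT1 and MCF10Ca1a. F2R, the protease-activated receptor PAR1, held 995 to 1145 counts in MCF10A and 502 to 603 in MCF10AT1, while the MCF10Ca1a libraries held 0, 0 and 1. MMP9, a gelatinase, held 915 to 1090 counts in MCF10A, 0 to 1 in MCF10AT1 and 3 to 4 in MCF10Ca1a. F2R was thus almost lost from the malignant line only, and MMP9 from both derived lines.

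Of 44 listed genes of the cornified layer, where KLK5 and KLK7 act in skin, 31 were tested; 6 rose (19.4%) and 15 fell (48.4%) in MCF10AT1 against MCF10A (median -0.39). In MCF10Ca1a against MCF10A 12 rose (38.7%) and 14 fell (45.2%), near the shares of all tested genes (median -0.06), and from MCF10AT1 to MCF10Ca1a 18 rose (58.1%) and 8 fell (25.8%; median 0.72). IVL, the envelope protein involucrin, had 1.79, 1.41 and 0.0852 TPM in the 3 lines in that order, and S100A8 fell from 358 TPM in MCF10A to 5.59 in MCF10AT1. OVOL1, an epithelial transcription factor, was 5.15 higher in MCF10Ca1a than in MCF10A (log2, adjusted p = 1.03e-10, edgeR).

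Steroid and related nuclear receptors were listed because several kallikrein genes respond to steroid hormones, and the medium held hydrocortisone. Of 16 listed, 13 were tested; 7 rose (53.8%) and 4 fell (30.8%) in MCF10AT1 against MCF10A (median 0.25). In MCF10Ca1a against MCF10A 9 rose (69.2%) and 3 fell (23.1%; median 0.84), and from MCF10AT1 to MCF10Ca1a 10 rose and 2 fell (median 0.55). NR3C1, the glucocorticoid receptor, had means of 37.1, 38.7 and 35.3 TPM in the 3 lines. In counts it was 0.25 higher in MCF10AT1 than in MCF10A (log2, adjusted p = 0.00155, edgeR), and in MCF10Ca1a it differed by -0.16 from MCF10A (adjusted p = 0.0166, edgeR) and by -0.42 from MCF10AT1 (adjusted p = 1.28e-05, edgeR). PPARG, a lipid-sensing receptor, rose from 5.4 to 36.6 and 53.8 TPM. ESR1, the oestrogen receptor, was low but higher in both derived lines, at 0.177, 0.655 and 1.55 TPM.

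Of 12617 candidate genes, 5 were named whose pattern over the 9 libraries lay closest to that of KLK5, measured as the root mean square distance between log2 CPM values centred on their means. They were C9orf64 (0.18), SLCO1B3 (0.193), MIA (0.221), TBX18 (0.277) and TLR4 (0.346). C9orf64 held a mean of 13.7 counts in MCF10A, 1730 in MCF10AT1 and 230 in MCF10Ca1a, near the course of KLK5. SLCO1B3, a liver-type organic anion transporter gene, and TLR4, the lipopolysaccharide receptor gene, were likewise nearly silent in MCF10A, with means of 5 and 22.3 counts. The 0.5 CPM added before the logs exceeds the mean level of each of these genes in MCF10A, so the distance hardly separates low levels there: the fitted change of MIA from MCF10A to MCF10AT1 was 10.47 on the log2 scale, against 7.13 for KLK5. None of these genes was chosen by location or function, and the likeness is a description over 3 lines.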

How the data were processed

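Polyadenylated RNA of 9 libraries, 3 for each of 3 lines, was measured. Per the submitters' processing notes, the authors used Salmon and hg38; versions and the annotation are not given in the sources used here. The deposited tables hold estimated counts and TPM per gene and per transcript, and 2 further gene count tables, named as length-scaled and as scaled. Column names gave each library. Estimated counts as deposited were rounded, and filterByExpr kept genes (minimum count 10, minimum total 15, 17910 of 62666), which were tested with edgeR 4.0.16 in R 4.3.3 (quasi-likelihood, TMM, all 9 libraries in 1 fit, Benjamini-Hochberg, call at adjusted p under 0.05). CPM values are counts scaled to a common library total. TPM values as deposited by the authors were used for levels.

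Folds with a line at 0 counts were computed against 3 counts per library. Where a line held libraries at 0 to 3 counts of a member and the other line held more, the ratio of summed rates is given with an exact 95% counting interval. Transcript shares were tested with limma 3.58.1 on log2((count + 0.5)/(rest of gene + 0.5)), for transcripts with at least 10 counts in 3 libraries. Tests were run on simulated data first. There the share test missed most share changes of a fixed log2 size; changes scaled to each transcript's own spread, tried next, were recovered, and the test itself was left as it was. Positions are from GENCODE 29 on GRCh38 through unversioned identifiers; RefSeq windows were matched by symbol for 9 of 10 members, and KLK8 had no entry.

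The members, lists, tests and named genes were chosen with earlier results of these data known. From each list and comparison, the rule named up to 2 rises and 2 falls with the largest log2 change among called genes whose higher line averaged 100 counts or more, and the text gives some of them. For the pattern most like KLK5 it named 5 genes; 0.5 was added to CPM before taking logs, and this value, like the motifs searched, was chosen after the files were seen. A list gene named in 1 comparison is given in all lines. Alternatives were DESeq2 1.42.0 (Wald test and size factors), no filter, the length-scaled and scaled counts, a minimum log2 change of 1 (glmTreat), a replicate block, thinning, limma on log2(TPM + 1) and log2(TPM + 0.1), a fit of the compared lines alone, and omission of each library.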

Additional observations from a re-analysis of the deposited data

How the results depend on the processing

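Recomputed log2 changes numbered 379, 6 of them the sum of KLK8, KLK9 and the read-through gene set beside KLK8 and KLK9. Of these, 366 kept their side of the threshold, 12 lost the call and 1 gained it. None that was called reversed, but the 366 include uncalled changes of KLK9 in MCF10Ca1a against MCF10A whose direction turned. Of the 12 losses, 9 concern KLK8 in MCF10Ca1a against MCF10A: besides the values given above, it was -0.11 with the scaled counts (adjusted p = 0.929), -1.97 when thinned to the smallest library (adjusted p = 0.0596), -2.47 against a minimum log2 change of 1 (adjusted p = 0.0686) and -0.02 to -0.51 with limma on TPM. The other 3 were changes under 1 that were not called against a minimum log2 change of 1: KLK7 in MCF10AT1 against MCF10A, KLK10 in MCF10Ca1a against MCF10A and KLK6 in MCF10Ca1a against MCF10AT1. That minimum left 3 members called in MCF10Ca1a against MCF10A. The gain is the call of that sum in MCF10Ca1a against MCF10A (-1.59, adjusted p = 0.0167), set beside the uncalled KLK9, which by itself gained no call. With limma on TPM the pseudocount made changes of low genes smaller, such as 4.54 for KLK5 in MCF10AT1 against MCF10A with 1 added. Leaving out each library gave 6 to 6, 4 to 5 and 6 to 6 members called for MCF10AT1 over MCF10A, for MCF10Ca1a over MCF10A and for MCF10Ca1a over MCF10AT1; the uncalled KLK9 change in the second then ran from -3 to 2.34. For transcript shares the counts ran from 0 to 2, 0 to 2 and 0 to 0; the calls appeared without MCF10AT1 replicate 1 (KLK10-202 and KLK10-206), without MCF10A replicate 1 (KLK5-203) or without MCF10A replicate 2 (KLK6-202). With an offset of 5 the share test called 1 transcript, KLK5-202, in each comparison against MCF10A. Replicate numbers shared between lines did not pair the libraries: correlations of same-numbered libraries ran from -0.174 to 0.203. With the replicate number as a block the counts of members called were 6, 5 and 6 and those of transcripts 0, 0 and 0. KLK9 was not tested when thinned, and KLK8 and KLK9 were not tested with only MCF10A and MCF10Ca1a in the fit, which called 4 members. Depth limits the values of KLK6 in MCF10A, KLK7 in MCF10Ca1a, KLK8 and KLK9 in both of these lines, and KLK11, KLK12, KLK13 and KLK14 in all lines.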
